A study of Homo sapiens with 33 samples.

Results

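SCC6 (UM-SCC-6) is an established line of head and neck squamous cell carcinoma, a tumour of the stratified epithelium that lines the mouth and throat. The data described here are the bulk RNA sequencing libraries of SCC6 grown with cetuximab or with PBS on days 1 to 5, which are 10 of the 33 libraries of the series, 5 of them with each treatment. The other libraries are those of SCC6 on day 0 and of the HNSCC lines SCC1 and SCC25, which were sampled in the same way. The comparison asks which transcripts move within the first days of EGFR blockade. Cells received 100 nM cetuximab or PBS, the untreated control, in medium that was renewed daily, from the day after seeding. Per the labels the medium of SCC6 was high-glucose DMEM with non-essential amino acids in both groups, while the study's methods name DMEM and Ham's medium. RNA was poly(A) selected, and the values are estimated counts per gene symbol from Salmon. PBS libraries were labelled day 1, 2, 3, 4 and 5. For cetuximab the labels gave day 2 for 2 libraries, days 3, 4 and 5 for 1 library each, and day 1 for none. The libraries labelled day 2 are called 2a and 2b, in the order of the table, and their day is not known further. Columns of the count table were joined to the sample labels by the flow cell, lane and index that both carry. The labels do not say that libraries came from separate cultures, so each treatment's days served as its replicates and each p-value measures the spread between these libraries only.

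Flow cells did not match the treatments. Cetuximab 2a, 2b and 3 and PBS of days 2 to 5 shared 1 flow cell, which is called the shared flow cell. On it the cetuximab and the PBS libraries were in different lanes, so treatment and lane cannot be told apart there. Cetuximab days 4 and 5 were alone on their flow cell, and PBS day 1 was on a flow cell with libraries of SCC1. The late days of treatment, the flow cell and the greater depth of these 2 libraries therefore cannot be told apart, and the comparison of cetuximab with PBS was repeated within the shared flow cell.

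EGFR is a receptor tyrosine kinase that squamous carcinomas often carry in excess. It is bound by a family of ligands that are shed from the cell surface, and it signals through RAS, RAF, MEK and ERK to transcription factors of the immediate early class. ERK also induces its own brakes, the dual specificity phosphatases and the Sprouty proteins. Cetuximab is an antibody to the extracellular part of EGFR that blocks ligand binding. In normal stratified epithelium, EGFR activity is highest in the basal layer, where keratinocytes divide and are anchored to the matrix, and it falls as the cells cornify.

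Total counts ranged from 28508758 to 40302162 with PBS and from 33726089 to 80727478 with cetuximab, with days 4 and 5 the deepest. Levels are given as CPM, library-scaled counts after TMM normalization, and levels of different genes are not compared with each other because CPM does not correct for gene length. Genes that were expressed in untreated SCC6 alone (11 genes) had a median of 32.5 to 37.2 CPM in PBS and 30.2 to 36.5 CPM in cetuximab libraries, and those of SCC25 alone (18 genes) stayed at or below 0.218 CPM. The 1 gene of SCC1 alone was at 0.0716 to 0.471 CPM in PBS and 0.49 to 0.843 CPM in cetuximab libraries. Libraries 2a and 2b were not copies of each other. The chi-square of their counts was 20.8 per degree of freedom, against 8.2 for the most alike pair of PBS libraries. All 10 squamous epithelial markers were detected, with a summed level of 2570 to 5980 CPM in PBS and 2230 to 2650 CPM in cetuximab libraries. All 8 endothelial markers and 7 of 8 blood markers (all but CD68) were below 1 CPM in every library. Of 10 fibroblast markers, 7 (among them PDGFRA, DCN, LUM, COL1A2 and THY1) were below 1 CPM in every library, while the sum of the list was 3.21 to 4.97 CPM with PBS and 9.29 to 106 CPM with cetuximab. Of 8 melanocyte and neural markers, 6 were below 1 CPM, and the sum was 35.2 to 85.8 CPM with PBS and 70.8 to 115 CPM with cetuximab, most of it TUBB3. PBS day 1 stood apart from the other PBS libraries, with a correlation of its log2 CPM with the PBS mean of 0.968 against 0.986 to 0.997. In bulk RNA, fewer cells of a kind and less RNA per cell cannot be told apart.

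A large share of SCC6 transcripts differed between cetuximab and PBS. The test called 5226 of 17387 genes (30.1%), with 2702 (15.5%) higher and 2524 (14.5%) lower under cetuximab. The test was edgeR's quasi-likelihood F test with Benjamini-Hochberg adjustment over all genes tested, at an adjusted p under 0.05, and each adjusted p below comes from it. Over all genes tested, called or not, the 5 cetuximab values lay entirely above the 5 PBS values for 1801 (10.4%). They lay entirely below for 1514 (8.71%). When the called genes were signed by their direction, the median log2 ratio to the PBS mean was 0.437 in 2a, 0.56 in 2b, 0.665 on day 3, 0.878 on day 4 and 0.886 on day 5. The ratios are given without a test, because the same libraries chose the genes. A count without the cetuximab libraries of days 4 and 5, a setting chosen after seeing the data, was 2864 (1584 higher and 1280 lower), and without PBS day 1 it was 6602. Among genes named here, the calls of BID, CDK1, CDKN1B, CGN, CXCL8, DSG3, EPGN, EPHB4, ERBB2, ERBB3, KRT7, LAMA5, LDHA, MARVELD2, MET, MUC16, PMAIP1, TK1 and UBE2C were lost under 9 or more of the alternative settings. The members of 46 pathway and family lists are described in turn, each list by its counts and its median log2 fold change, beside 15.5% higher, 14.5% lower and a median of 0.00394 over all genes tested. Values in parentheses after a gene are log2 fold changes of cetuximab over PBS, with SE and adjusted p where given, and lists of CPM run from day 1 to 5 for PBS and through 2a, 2b, 3, 4 and 5 for cetuximab. Low genes were removed by the filter, so the number tested is not the number of members. A gene that passed it only through the group in which it is high had to differ. Among such genes were MYL7, CNN1, ACTG2, EGF, FLG, AXIN2, SPARC and PDGFRB, through cetuximab. Through PBS they included SPRR1A, SPRR2A, SPRR2D, DHRS9 and IL1RL1.

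**Figure D1:**
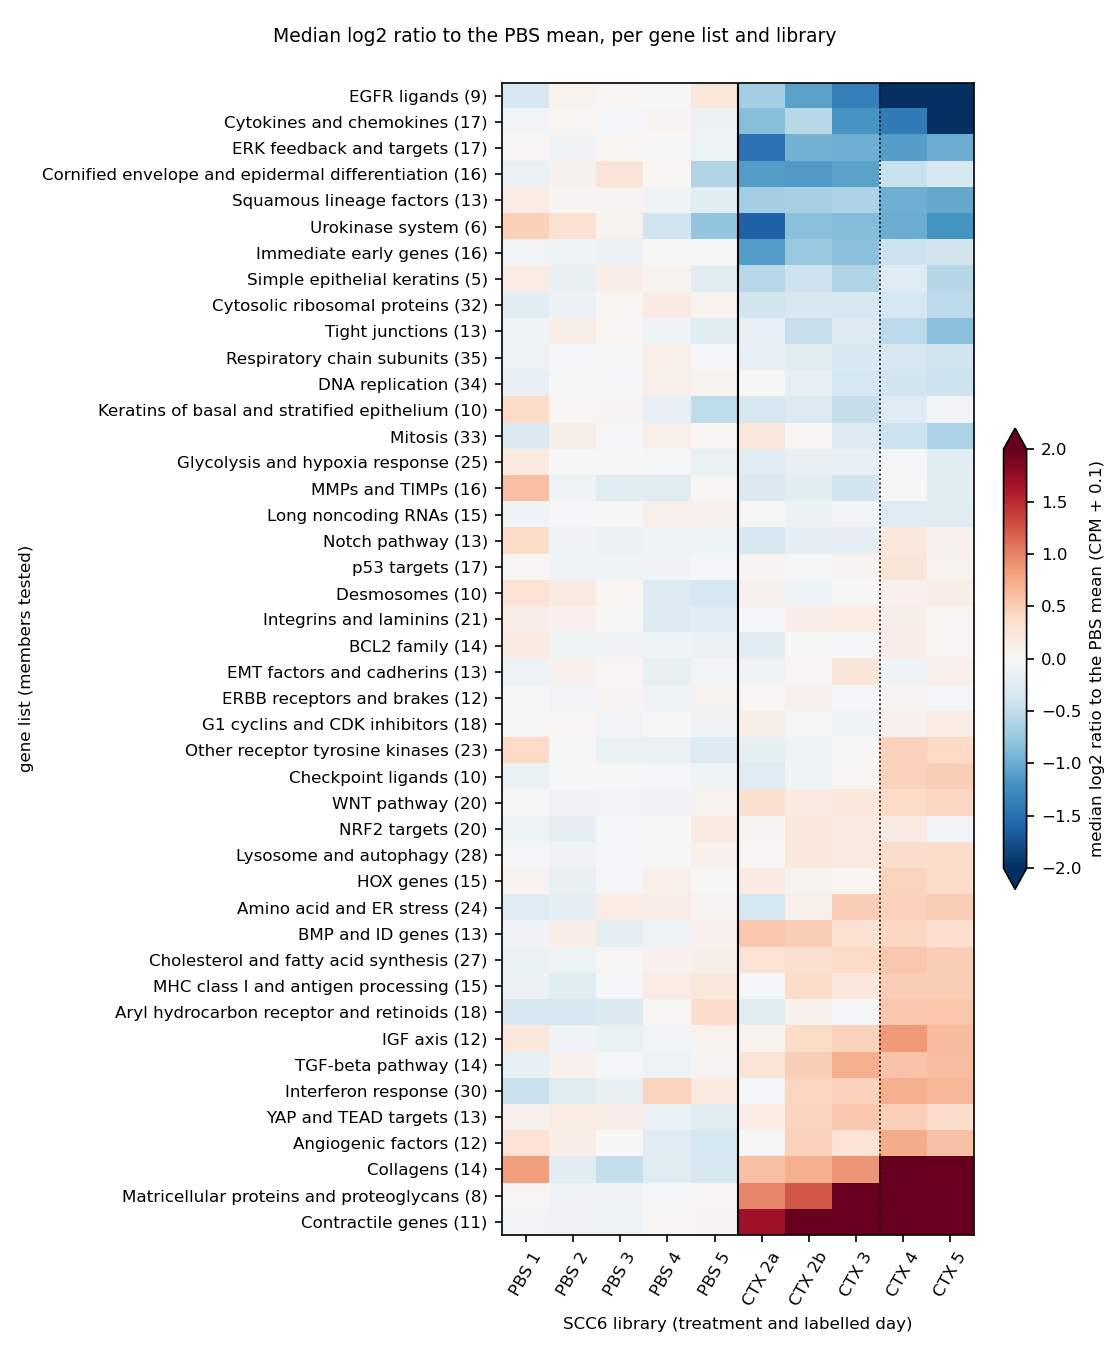
Each cell shows the median log2 ratio of a list's tested members (CPM + 0.1) to the PBS mean, with 1 row for each list of 5 or more tested members, 1 column for each SCC6 library, a solid line between the treatments and a dotted line before the cetuximab libraries that were alone on a flow cell. Contractile genes ran from 1.69 in 2a to 3.19 on day 5 and EGFR ligands from -0.684 to -2.04, while PBS day 1 stood apart for collagens at 0.834.

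Ligands of EGFR were mostly lower with cetuximab. Of 9 tested members of the ligand list (10 in all), 6 were lower and 2 higher, with a median log2 fold change of -1.44. AREG, amphiregulin, was measured at 359.5, 494, 458, 384 and 344 CPM in PBS of days 1 to 5 and at 82.5, 71.3, 56.3, 21.7 and 13.9 CPM in cetuximab 2a, 2b, 3, 4 and 5. All cetuximab libraries were below all PBS libraries, day 5 the lowest of them, with a log2 fold change of -3.06, SE 0.43, adjusted p = 0.00036. EREG, epiregulin, was at 450.5, 705, 678, 693 and 912 CPM with PBS and 194, 185, 118, 59.6 and 40.7 CPM with cetuximab, in the same order of libraries (-2.53, SE 0.40, adjusted p = 0.00078). HBEGF, a heparin-binding ligand, was at 393, 389.7, 379, 369.8 and 308 CPM with PBS and 62.8, 109, 112, 86.4 and 89.3 CPM with cetuximab (means 368 ± 34.5 and 92 ± 19.9, SD, n = 5 each, adjusted p = 9.2e-06). For HBEGF, 2a was the lowest cetuximab library, so its fall was not deepest late. TGFA, the transforming growth factor alpha ligand, went from 336 ± 86 CPM (SD, n = 5) to 109 ± 50.4 CPM (SD, n = 5). BTC and EPGN, ligands at levels below 5 CPM, were also lower (-1.19 and -1.44), although the EPGN values of the treatments overlapped. NRG4, a ligand of ERBB4, and EGF itself were higher (1.09 and 2.03), both below 2 CPM in every library, and EGF was not called on the shared flow cell (1.68). EGF passed the filter only through the cetuximab libraries, so the filter fixed its direction. NRG1, a ligand of ERBB3 and ERBB4, did not pass the test (0.28, adjusted p = 0.35).

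Of 12 tested genes for ERBB receptors and the proteins that restrain them, 3 were higher and 2 lower, with a median of 0.0948. EGFR was at 818, 843, 918, 806 and 948 CPM with PBS and 917, 950.1, 1019, 883 and 842 CPM with cetuximab. These ranges overlapped and the change of 0.09 (SE 0.09, adjusted p = 0.47) did not pass the test. ERBB2 was higher (77.4, 47.4, 46.1, 51.1 and 46.7 against 63.2, 72.4, 68.2, 123 and 114 CPM, 0.71, SE 0.21, adjusted p = 0.026), with day 4 and day 5 above the others and 2a, 2b and day 3 below PBS day 1. ERBB3, which signals as the partner of ERBB2, was lower by a small amount (-0.44) and was not called on the shared flow cell (-0.32). ERRFI1, which encodes the inhibitor MIG6 that EGFR signalling induces against itself, fell from 149, 209, 234, 231 and 271 CPM with PBS to 91, 106, 97.6, 69.8 and 74.8 CPM with cetuximab (-1.32, SE 0.16, adjusted p = 0.00017), without overlap. LRIG3 and the ubiquitin ligase CBLB rose (0.69 and 0.88).

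The list of feedback genes and other targets of the ERK cascade fell nearly as a whole. Of 17 members, all tested, 15 were lower and none higher, with a median of -1.16, and 13 were lower without cetuximab days 4 and 5. DUSP6, the phosphatase that switches off ERK, was at 46.8, 49.2, 43, 41.1 and 33.8 CPM in PBS of days 1 to 5 and at 10.9, 11.1, 12, 9.33 and 10.6 CPM in cetuximab 2a, 2b, 3, 4 and 5 (-1.99, SE 0.12, adjusted p = 3e-06). The cetuximab libraries were close together and far below the lowest PBS library, and 2a was as low as the later ones. DUSP5, a nuclear ERK phosphatase, went from 111, 166, 212, 201 and 220.1 CPM with PBS to 24, 33.9, 37.5, 22 and 21.2 CPM with cetuximab (-2.72, SE 0.22, adjusted p = 1.3e-05), and SPRY4, a Sprouty inhibitor of RAS signalling, from 31.6, 27, 33, 25.2 and 25.2 CPM with PBS to 5.19, 7.09, 7.37, 6.55 and 6.22 CPM with cetuximab (-2.13, SE 0.13, adjusted p = 3e-06). PHLDA1, an ERK-induced gene, fell by 2.45 on the log2 scale. DUSP4 and SPRY2 fell too (-1.53 and -1.27), as did the ETS factor ETV4 (-1.56). MYC was at 418, 474, 588, 609.6 and 708 CPM with PBS and 219, 296, 291, 235 and 213 CPM with cetuximab (-1.16, SE 0.15, adjusted p = 0.00026), and CCND1, cyclin D1, at 493 ± 28.6 and 338 ± 31.8 CPM (SD, n = 5 each, log2 fold change -0.55). SPRED3 and ETV5 did not pass the test (-0.51 and -0.35).

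**Figure D2:**
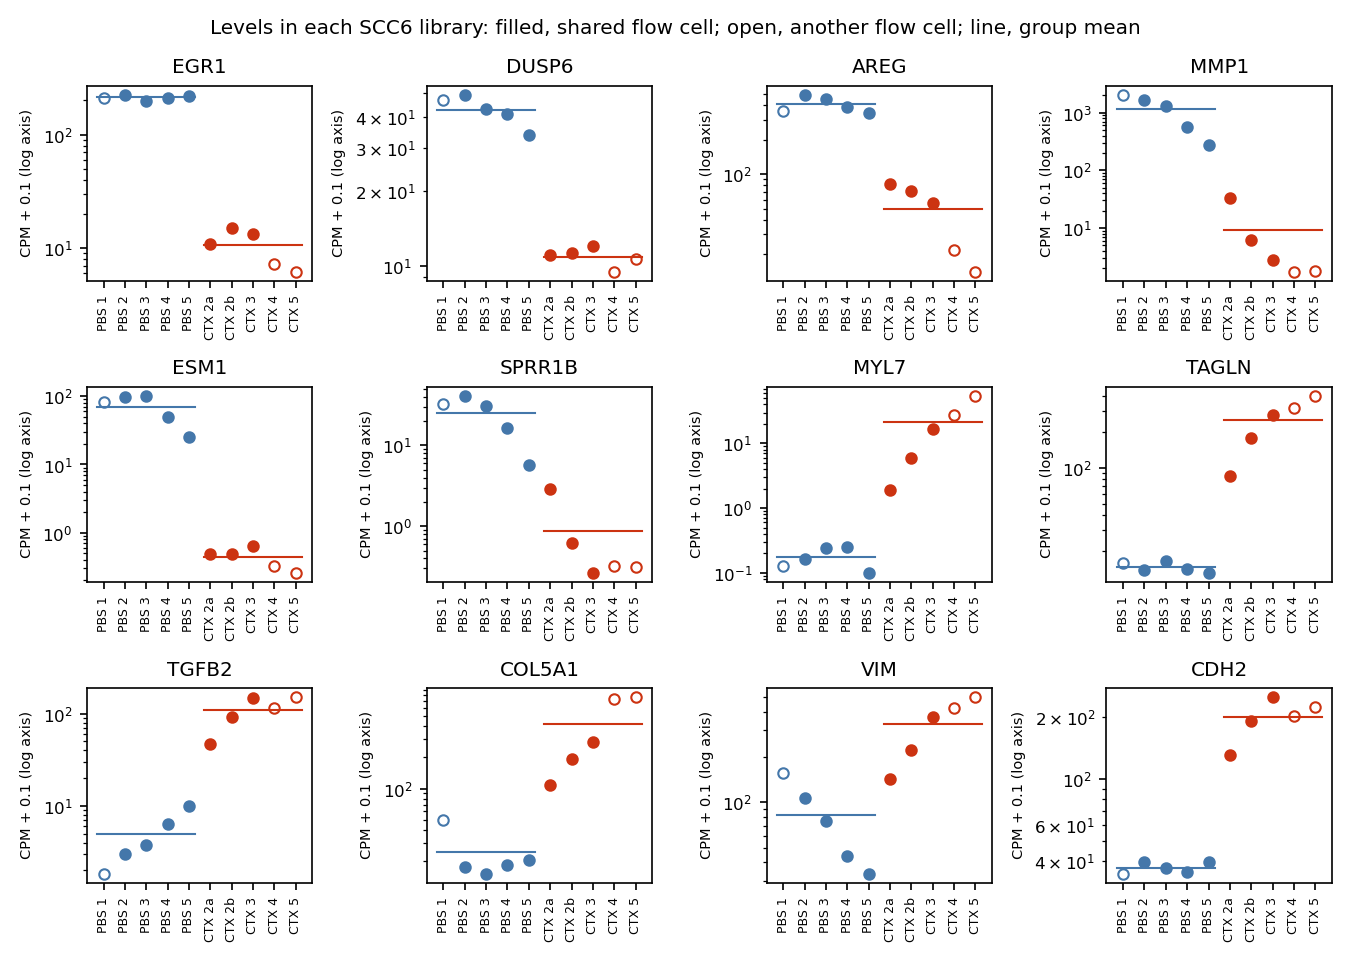
Each panel plots 1 gene as CPM + 0.1 on a log axis for the 10 SCC6 libraries, with PBS in blue, cetuximab in red, filled points for the shared flow cell, open points for other flow cells and a line at each group's mean. EGR1 and DUSP6 were already low in 2a (10.8 and 10.9 CPM), MYL7 and COL5A1 climbed from day 3 to day 5 of cetuximab, and the VIM values of PBS day 1 and 2a lay next to each other (156 and 143 CPM).

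Immediate early genes moved in both directions. Of 16, all tested, 8 were lower and 4 higher, with a median of -0.517. EGR1, a zinc finger factor that ERK induces through ELK1 and SRF, was at 212, 224, 196, 211 and 219.5 CPM with PBS and at 10.8, 14.8, 13.3, 7.19 and 6.08 CPM with cetuximab (-4.35, SE 0.24, adjusted p = 3e-06). Every cetuximab library was far below every PBS library, and the PBS libraries were nearly alike. EGR3 and EGR2 fell as well, from at most 5.04 CPM and 2.9 CPM (-4.04 and -2.79). FOS went from 13.2 ± 3.45 to 2.44 ± 0.247 CPM (SD, n = 5 each, -2.43) and FOSL1, which encodes FRA1, from 160.3 ± 15.5 to 41.2 ± 8.94 CPM (-1.96). IER2, FOSB and IER5 were lower too. JUN, JUND, FOSL2 and ATF3, other genes of AP-1 family factors, rose (0.73, 1.08, 0.79 and 0.74), each with overlap between 2a and the PBS libraries. JUN was not called on the shared flow cell (0.51). The other 4 members did not pass the test.

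The promoter of EGR1 is shown because EGR1 was among the 12 largest falls chosen by size and because the promoter carries the CArG box, the sequence that the factor SRF binds. It is the window of 300 bases around the gene start (250 before and 50 after) at chr5:138465229-138465528 on the plus strand of GRCh38.p14, from RefSeq, printed 5′ to 3′ with CArG boxes in capitals. The matches start 105 and 83 bases before the gene start.
EGR1: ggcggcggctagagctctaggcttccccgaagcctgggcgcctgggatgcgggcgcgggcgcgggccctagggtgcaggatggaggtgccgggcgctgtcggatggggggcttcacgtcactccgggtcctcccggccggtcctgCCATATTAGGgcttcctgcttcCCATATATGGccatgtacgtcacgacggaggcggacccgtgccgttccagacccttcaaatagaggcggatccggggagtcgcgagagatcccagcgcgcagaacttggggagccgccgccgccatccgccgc
Within the immediate early list, 2 of 13 members with a promoter in the RefSeq table held a CArG box (EGR1 and SRF). The share was 0.992% over the 10990 tested genes with a promoter and 1.29% over all 27195 promoters. SRF itself did not pass the test (0.34). A match describes letters in this window and not a bound site.

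How many cell cycle genes passed the test depended on the libraries used. Of 34 DNA replication genes, 9 were lower and 1 higher, with a median of -0.241. RRM2, a subunit of ribonucleotide reductase, went from 360.2, 455, 431, 370.3 and 361 CPM with PBS to 322, 251, 216, 172 and 179.8 CPM with cetuximab (-0.79, SE 0.16, adjusted p = 0.0039), without overlap. GINS3, a part of the replicative helicase, and MCM10 fell by 0.62 and 0.55. For MCM10, 2a was within the PBS range and the other cetuximab libraries were below it. TK1, thymidine kinase, was the single member that rose (0.39). Without cetuximab days 4 and 5 only 2 members were lower. It was 5 without PBS day 3, PBS day 4 or cetuximab day 5, 15 without PBS day 1, 16 without 2a, 18 without 2a and 2b, and 19 with the replicate block by labelled day. Of 33 mitotic genes, 3 were lower (MAD2L1, CDK1 and UBE2C) and none higher. That count was 1 on leaving out any 1 of PBS days 2, 3 and 4 and cetuximab days 3, 4 and 5, and without cetuximab days 4 and 5 together it became 0 lower and 3 higher. It was 8 without 2a, 17 without 2a and 2b, and 15 with the replicate block. CDK1 was at 157, 234, 225, 231 and 226 CPM with PBS and 202, 166, 138, 117 and 123 CPM with cetuximab (-0.52, SE 0.16, adjusted p = 0.029), with 2a inside the PBS range. MKI67 and TOP2A did not pass the test (-0.22 and -0.02).

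Among G1 regulators, 3 of 18 were higher and 2 lower. CCNE1, cyclin E1, fell from 35.6 ± 5.59 to 17 ± 3.41 CPM (SD, n = 5 each, -1.07), and the phosphatase CDC25A by 0.88. CDKN1B, CDKN1C and CDKN2C, inhibitors of cyclin-dependent kinases, rose (0.29, 1.72 and 1.25), while CDKN1A did not pass the test (-0.24). Of 14 BCL2 family genes, 2 were higher and 3 lower. BMF and BCL2L11, which encode the pro-apoptotic proteins BMF and BIM, rose. BMF was at 6.42, 5.85, 6.54, 8.16 and 9.79 CPM with PBS and 20.3, 15.8, 16.5, 38.1 and 34.9 CPM with cetuximab (1.77, SE 0.27, adjusted p = 0.00064), and BCL2L11 at 32.8, 40.7, 41, 45 and 54.3 CPM with PBS and 50.7, 61.1, 68.5, 77.1 and 94.8 CPM with cetuximab (0.72, SE 0.17, adjusted p = 0.0084). BMF values did not overlap, and for BCL2L11 the lowest cetuximab library, 2a, was below PBS day 5. MCL1, BID and PMAIP1 were lower by at most 0.41, and none of the 3 was called without cetuximab days 4 and 5. A single member was lower on leaving out any 1 of PBS days 2, 3 and 4 and cetuximab days 4 and 5.

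Proteases that degrade the matrix moved in both directions. Of 16 matrix metalloproteinases and their inhibitors, 5 were higher and 4 lower. MMP1, the interstitial collagenase, was at 2041, 1688, 1282, 568 and 275 CPM in PBS of days 1 to 5 and at 33.2, 6.16, 2.65, 1.64 and 1.72 CPM in cetuximab 2a, 2b, 3, 4 and 5 (-7.04, SE 1.04, adjusted p = 0.00053). PBS declined over the days and cetuximab libraries up to day 4, and the highest cetuximab library was still below the lowest PBS library. MMP10, stromelysin 2, was at 63, 42.4, 25.2, 12 and 8.91 CPM with PBS and 3.5, 2.77, 2.36, 2.95 and 5.99 CPM with cetuximab (-3.10, SE 0.51, adjusted p = 0.001), and MMP3, at 3.51 CPM or less, fell as well (-1.85). TIMP1, an inhibitor, fell by 1.13, while TIMP2 rose (1.16). MMP14, the membrane-bound protease that activates MMP2, was at 392, 169, 141, 126 and 99 CPM with PBS and 397, 580.2, 655, 1313 and 1192 CPM with cetuximab (2.16, SE 0.42, adjusted p = 0.0027). The values of PBS day 1 and 2a were nearly equal (392 and 397 CPM), and days 4 and 5 were the highest. MMP2, a gelatinase, went from 41.7, 27.5, 21.5, 20.6 and 22.1 CPM with PBS to 91.3, 110.5, 132, 198 and 211 CPM with cetuximab (2.48, SE 0.27, adjusted p = 8e-05), and MMP11 and MMP13 rose too (2.21 and 1.46). MMP13 was not called on the shared flow cell (1.26). MMP1 lies on chromosome 11 from 102660132 to 102668891 (GENCODE on GRCh37).

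In the urokinase system, the protease PLAU, its receptor PLAUR and the inhibitor SERPINB2 were lower. PLAUR was at 359, 316, 269, 196 and 117 CPM with PBS and 72.1, 64.5, 50.1, 29.5 and 23.3 CPM with cetuximab (-2.40, SE 0.36, adjusted p = 0.00058). SERPINB2 was at 1495, 1771, 1208, 522 and 309 CPM with PBS and 168, 94.4, 35.7, 6.69 and 3.22 CPM with cetuximab (-4.11, SE 0.96, adjusted p = 0.0078), lower at each later label in both groups from day 2 on, and without the filter on low counts its adjusted p was 0.0564.

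Of 12 angiogenic factors tested, 5 were higher and 4 lower. ESM1, endocan, a secreted proteoglycan, had 81.3, 96.1, 102, 49 and 25 CPM with PBS and 0.379, 0.387, 0.543, 0.221 and 0.158 CPM with cetuximab, a log2 fold change of -7.80, SE 0.48, adjusted p = 3e-06. No cetuximab library reached 1 CPM. It lies on chromosome 5 from 54273695 to 54318499 (GRCh37). THBS1, thrombospondin 1, an inhibitor of angiogenesis, rose from 1370, 1286, 1213, 835 and 582 CPM with PBS to 4039, 4578, 4329, 2784 and 2522 CPM with cetuximab (1.79, SE 0.25, adjusted p = 0.00035) and was highest in 2b, not late. PDGFA and PDGFB, ligands of the PDGF receptors, rose by 1.30 and 1.74, VEGFC and SEMA3C by 0.83 and 0.98. VEGFA did not pass the test (-0.33, adjusted p = 0.22).

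Inflammatory mediators were mostly lower. Of 17 tested cytokines and chemokines (24 in the list), 12 were lower and 3 higher, with a median of -1.25. IL1B, interleukin 1 beta, was at 107, 156, 139, 116 and 108 CPM with PBS and 37.7, 44.7, 26.9, 16.4 and 12 CPM with cetuximab (-2.19, SE 0.32, adjusted p = 0.00045), and IL1A, interleukin 1 alpha, at 147, 207, 146, 127 and 121 CPM with PBS and 76.6, 81.3, 50.8, 24.5 and 20.2 CPM with cetuximab (-1.56, SE 0.36, adjusted p = 0.0068). Both were lowest on days 4 and 5 and did not overlap with PBS. IL1RN, the receptor antagonist that blocks both, went from 18.9, 23.6, 23.5, 16.3 and 8.94 CPM with PBS to 4.4, 2.36, 1.8, 0.98 and 0.538 CPM with cetuximab (-3.22, SE 0.49, adjusted p = 0.00063). LIF and IL11, ligands that signal through gp130, fell without overlap (-1.25 and -1.54). The neutrophil chemokines CXCL2, CXCL3 and CXCL8 fell by 1.45, 1.12 and 1.26, and CXCL8 was at 192, 264, 153, 64.5 and 48.7 CPM in the cetuximab libraries, with 2b within the PBS range. CCL20 fell at a low level (-3.75). TNF rose, also at a low level, from 0.32, 0.582, 0.539, 0.959 and 0.54 CPM with PBS to 2.01, 4.96, 3.99, 4.18 and 5.11 CPM with cetuximab (2.77, SE 0.31, adjusted p = 9.7e-05), and CSF1 and CCL5 rose with overlap. IL18 did not pass the test (-0.45). ACKR3, an atypical receptor that takes up CXCL12, was the only gene of its axis that was tested. It was at 1.54, 1.2, 1.4, 2.36 and 2.97 CPM with PBS and 20.4, 35.5, 57.4, 74.7 and 81.7 CPM with cetuximab (4.83, SE 0.41, adjusted p = 1.7e-05), without overlap, and climbed from day 3 to day 5. IL1RL1, the receptor of interleukin 33, belongs to no list and was named for its size on the shared flow cell. Its level was 3.92, 9.64, 21.7, 17 and 19.8 CPM with PBS and 0.0291, 0, 0.0945, 0.0612 and 0.0263 CPM with cetuximab (-8.30, SE 0.62, adjusted p = 9.2e-06), with no count in 2b.

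Keratins did not move together. Of 10 tested keratins of basal and stratified epithelium, 2 were higher and 4 lower. KRT5, a keratin of basal cells, was at 3.02, 2.23, 1.65, 2.24 and 1.89 CPM with PBS and 11.7, 10, 9.5, 11.9 and 13.3 CPM with cetuximab (2.35, SE 0.18, adjusted p = 9.2e-06), without overlap. Its partner KRT14 did not pass the test (0.37). KRT17, a keratin of activated epithelium, rose from 792, 535, 485, 391 and 360 CPM with PBS to 762, 1121, 1509, 1592 and 1778 CPM with cetuximab (1.40, SE 0.25, adjusted p = 0.0019), where 2a lay just below PBS day 1. KRT6A, another keratin of activated epithelium, was at 571, 334, 207, 75.2 and 30.4 CPM with PBS and 46.2, 28, 15.2, 9.03 and 6.97 CPM with cetuximab (-3.54, SE 0.77, adjusted p = 0.0052). It declined over the days in both groups, and the groups overlapped because 2a was above PBS day 5. KRT6A was not called on the shared flow cell (-2.42) or in a fit with a flow cell term (-2.44, adjusted p = 0.08). The same held for KRT6B, whose log2 fold change was -3.64 over all libraries and -2.38, adjusted p = 0.091, with the flow cell term. KRT6A and KRT6B are near-identical, so their counts may share reads. KRT15 and KRT19 fell without overlap (-1.20 and -0.93), and KRT19 was counted in this list though it is a keratin of simple epithelium too. Of 5 tested members of the list of simple epithelial keratins, KRT8 and KRT18, partners in the same filament, fell by 0.94 and 1.16, and KRT7 by 0.45. KRT80, counted in this list though not confined to simple epithelium, rose (0.52). The KRT80 call was lost under 6 of the alternative settings, among them the flow cell term and the fit without cetuximab days 4 and 5.

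Genes of the cornified envelope, the protein shell of the outermost cells, were more often lower than higher. Of 28 members 16 were tested, 8 of them lower and 2 higher, with a median of -0.827, and 11 were lower without cetuximab days 4 and 5. SPRR1B, a small proline-rich protein of the envelope, was at 32.2, 40.9, 30.8, 16.1 and 5.63 CPM with PBS and 2.8, 0.523, 0.165, 0.221 and 0.21 CPM with cetuximab (-5.15, SE 0.82, adjusted p = 0.00084). SPRR3 was at 3.05, 10.3, 11.5, 9.24 and 4.93 CPM with PBS and 0.524, 0.318, 0.449, 0.429 and 0.158 CPM with cetuximab (-4.40, SE 0.42, adjusted p = 3.5e-05). Both were below the lowest PBS library in each cetuximab library, and SPRR1B was highest in 2a among them. SPRR1A, SPRR2A and SPRR2D fell by more than 4 on the log2 scale (-4.82, -7.14 and -5.58), and reads may be shared among the near-identical SPRR2 genes. The 8 lower include members such as SPRR1A, SPRR2A and SPRR2D. These passed the filter only through the PBS libraries, so the filter fixed their direction. PI3, elafin, a protease inhibitor, fell from 18.6, 13.2, 10.6, 7.84 and 5.23 CPM with PBS to 1.63, 0.614, 0.402, 0.221 and 0.236 CPM with cetuximab (-4.26, SE 0.56, adjusted p = 0.00024). S100A9, a calcium-binding protein of inflamed epithelium, fell by 1.66. FLG, filaggrin, rose at a level under 1 CPM (1.68), but it passed the filter only through the cetuximab libraries. KLK5, a protease of desquamation, rose with overlap and was not called on the shared flow cell. IVL, involucrin, and TGM1, the cross-linking enzyme, did not pass the test (-0.23 and 0.80), while on the shared flow cell IVL was called lower and TGM1 higher (-0.87 and 0.96).

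The SPRR promoters are shown because these genes fell together and because several of them hold the AP-1 heptamer TGAGTCA, searched on both strands, so that TGACTCA counts as a match too. The sequences are windows of 300 bases from RefSeq on GRCh38.p14, both on the plus strand, printed 5′ to 3′, with the heptamer in capitals. Other letters at its centre were not searched. That of SPRR1B is chr1:153030953-153031252, with the match 141 bases before the gene start, and that of SPRR3 is chr1:153001499-153001798, with the match at 170.
SPRR1B: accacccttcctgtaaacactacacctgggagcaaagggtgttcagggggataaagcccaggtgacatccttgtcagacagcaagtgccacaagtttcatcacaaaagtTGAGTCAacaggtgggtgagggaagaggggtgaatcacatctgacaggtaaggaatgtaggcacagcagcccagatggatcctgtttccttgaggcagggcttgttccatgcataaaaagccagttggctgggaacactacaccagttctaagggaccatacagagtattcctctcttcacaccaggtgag
SPRR3: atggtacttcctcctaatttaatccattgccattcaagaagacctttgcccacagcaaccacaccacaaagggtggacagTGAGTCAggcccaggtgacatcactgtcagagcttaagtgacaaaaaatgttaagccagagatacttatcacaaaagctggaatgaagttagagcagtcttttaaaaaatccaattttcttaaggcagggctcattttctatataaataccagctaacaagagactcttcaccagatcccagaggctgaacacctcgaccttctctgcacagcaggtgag
Of 13 tested members of the cornified envelope list with a promoter in the table, 5 held the heptamer (IVL, SPRR1A, SPRR1B, SPRR2A and SPRR3). The share was 3.36% over the 10990 tested genes with a promoter and 4.89% over all promoters. All but IVL are related SPRR genes, so these matches are not independent. IVL is among them although it did not pass the test.

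Transcription factors of the squamous lineage were more often lower than higher. Of 13 tested, 7 were lower and 2 higher, with a median of -0.818. TP63, the master regulator of basal cells, rose from 33.7, 30.9, 34, 36.4 and 50.04 CPM with PBS to 74.8, 68.6, 81.8, 91.5 and 112 CPM with cetuximab (1.21, SE 0.16, adjusted p = 0.00025), without overlap. GRHL3 and ZNF750, factors of late differentiation, fell (-2.44 and -2.14), GRHL3 with overlap and without a call on the shared flow cell. ELF3 was at 75.8, 77.2, 87.9, 110.2 and 120.3 CPM with PBS and 31.9, 36.9, 32.6, 48.1 and 46.2 CPM with cetuximab (-1.27, SE 0.17, adjusted p = 0.00024). The other members that fell were EHF, KLF5, GRHL1 and OVOL1, by 0.82 to 1.18, and GRHL2 rose (0.55). KLF4 did not pass the test (-0.33). PRDM1, BLIMP1, a repressor of terminally differentiating cells, was named for its size and was at 39.8, 41.3, 33.2, 27.9 and 23.2 CPM with PBS and 7.52, 5.07, 2.93, 2.35 and 1.72 CPM with cetuximab (-3.10, SE 0.37, adjusted p = 0.00014).

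Of 13 tight junction genes, 6 were lower and none higher. OCLN, occludin, was at 68.6, 104, 94.8, 74.8 and 71.3 CPM with PBS and 48.2, 42.9, 34.8, 18.6 and 19.7 CPM with cetuximab (-1.34, SE 0.26, adjusted p = 0.0028), lowest on days 4 and 5. CLDN4, CLDN7 and CLDN12, claudins, fell (-1.07, -0.94 and -0.63), and so did CGN and MARVELD2. Without cetuximab days 4 and 5, 3 members were lower and 1 higher. Of 10 desmosomal genes, DSC3 and PKP2 were higher (0.84 and 0.67) and DSG3 lower (-0.99).

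Genes tied to the epithelial-mesenchymal transition moved both ways. Of 13 tested, 5 were higher and 4 lower, with a median of 0.088. CDH2, N-cadherin, was at 34.5, 39.3, 36.8, 35.2 and 39.2 CPM with PBS and 132, 192, 252, 204 and 224 CPM with cetuximab (2.44, SE 0.15, adjusted p = 3e-06). Every cetuximab library was more than 3 times above the highest PBS library. VIM, vimentin, was at 156, 107, 75.2, 44.3 and 33.6 CPM with PBS and 143, 223, 370, 425 and 501 CPM with cetuximab (2.001, SE 0.43, adjusted p = 0.0051). PBS fell over the days and cetuximab rose, and 2a was just below PBS day 1. FN1, fibronectin, held 1.23 to 2.3 percent of all counts in PBS and 2.96 to 6.89 percent in cetuximab libraries (log2 fold change 1.54, SE 0.25, adjusted p = 0.00093). CDH1, E-cadherin, did not pass the test (-0.47, adjusted p = 0.055), and EPCAM fell (-0.93). SNAI2, which encodes SLUG, rose from 53 ± 13.4 to 96.6 ± 15.6 CPM (SD, n = 5 each, 0.87), and TWIST1 by 0.69 with overlap. SNAI1 and ZEB1 fell, both below 5 CPM (-0.97 and -0.88), and ZEB2 did not pass the test (0.13).

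Most tested collagens rose. Of 14 tested collagens (19 in the list), 8 were higher and 2 lower, with a median of 1.59. COL5A1, a fibrillar collagen, was at 49.8, 17.4, 14.9, 18 and 20.4 CPM with PBS and 109, 192, 281, 731 and 768 CPM with cetuximab (4.11, SE 0.58, adjusted p = 0.00039). PBS day 1 stood above the other PBS libraries, the groups did not overlap, and days 4 and 5 were far above day 3. COL4A1 and COL4A2, basement membrane chains that share 1 promoter region, were at 68.2, 41.6, 36.4, 42 and 48.6 CPM with PBS and 142, 222, 349, 673 and 886 CPM with cetuximab (3.26, SE 0.45, adjusted p = 0.00035), and at 143, 62.4, 54.6, 69.2 and 66.6 CPM with PBS and 151, 252, 349, 942 and 1031 CPM with cetuximab (2.78, SE 0.52, adjusted p = 0.0021). COL1A1, the main chain of type I collagen, went from 4.21, 2.98, 2.34, 2.31 and 2.09 CPM with PBS to 7.17, 12.4, 20.7, 61.9 and 80.9 CPM with cetuximab (3.72, SE 0.62, adjusted p = 0.0012), while its partner COL1A2 was below 1 CPM in every library. COL3A1 did not pass the filter and was not tested. It had 0, 3, 0, 2 and 0 counts with PBS and 5, 25, 66, 497 and 1239 counts with cetuximab. COL12A1 rose (1.62), COL8A1 and COL13A1 fell (-1.37 and -1.25), and COL7A1 and COL17A1 did not pass the test (0.94 and 0.53). On the shared flow cell 10 of 15 were higher, with a median of 1.26. COL1A1, COL3A1 and PDGFRB made up nearly all of the higher sum of fibroblast markers with cetuximab. The other 7 of the 10 markers stayed below 1 CPM in every library. The origin of the higher sum was not tested.

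All 8 tested matricellular proteins and proteoglycans rose, with a median of 1.98, while 7 members of the list, POSTN, LUM and DCN among them, did not pass the filter. Of the 8 that rose, SPARC passed the filter only through the cetuximab libraries, so the filter fixed its direction. FBN1, fibrillin 1, was at 5.46, 4.17, 4.31, 4.4 and 3.98 CPM with PBS and 26.3, 48.1, 81.2, 98.3 and 122 CPM with cetuximab (4.07, SE 0.37, adjusted p = 2.3e-05). TNC, tenascin C, was at 19.9, 20.4, 20.6, 20.7 and 23.5 CPM with PBS and 28.4, 60.2, 122, 200 and 308 CPM with cetuximab (2.78, SE 0.51, adjusted p = 0.0019), nearly constant with PBS and climbing from day 3 to day 5 with cetuximab. LOXL2 and LOX, enzymes that cross-link collagen, rose (2.53 and 1.43), as did TGFBI (1.12). SPARC was at most 0.0737 CPM with PBS and at 0.321, 0.295, 0.992, 1.4 and 3.5 CPM with cetuximab (4.71, SE 0.85, adjusted p = 0.0018), and it did not pass the filter on the shared flow cell. HMCN1, hemicentin 1, a matrix protein of no list, went from 1.22, 0.938, 1.19, 1.01 and 2.09 CPM with PBS to 4.81, 7.68, 13.8, 32.9 and 49.9 CPM with cetuximab (4.09, SE 0.62, adjusted p = 0.00061).

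Contractile genes of smooth muscle and myofibroblasts had the highest median of the lists with 8 or more tested members. The lists were chosen with earlier results of these data known, so this rank is a description and not a test. Of 11 tested, 10 were higher and none lower, with a median of 2.89. The 10 include members such as MYL7, CNN1 and ACTG2, which passed the filter only through the cetuximab libraries, so the filter fixed their direction. On the shared flow cell 9 were higher and the median was 2.5. TAGLN, transgelin, was at 15.7, 13.9, 16.5, 14.1 and 13.1 CPM in PBS of days 1 to 5 and at 86, 177, 276, 319 and 402 CPM in cetuximab 2a, 2b, 3, 4 and 5 (4.11, SE 0.35, adjusted p = 1.7e-05). PBS libraries were alike, every cetuximab library was above them, and the values climbed from day 3 to day 5. MYL9, the regulatory light chain of smooth muscle myosin, was at 7.52, 5.21, 5.82, 5.48 and 6.85 CPM with PBS and 39.1, 67, 104, 135 and 175 CPM with cetuximab (4.08, SE 0.36, adjusted p = 2.1e-05). TPM1, a tropomyosin, was at 87.9, 122, 116, 126 and 119 CPM with PBS and 518, 747, 1026, 898 and 1046 CPM with cetuximab (2.89, SE 0.19, adjusted p = 5.1e-06), and CALD1, caldesmon, at 141, 170.4, 158, 129.6 and 128 CPM with PBS and 470.3, 546, 772, 592 and 817 CPM with cetuximab (2.14, SE 0.16, adjusted p = 9.2e-06). MYL7, the light chain of atrial myosin, was at 0.029, 0.0647, 0.144, 0.147 and 0 CPM with PBS, which is 13 counts over 5 libraries, and at 1.78, 5.91, 16.9, 27 and 54.3 CPM with cetuximab. Its fitted log2 fold change of 8.02, SE 1.05, adjusted p = 0.00024 rests on those few counts. ACTG2, gamma enteric actin, was at 0.174, 0.129, 0.324, 0.32 and 0.506 CPM with PBS and 1.34, 2.86, 9.03, 7.66 and 17.6 CPM with cetuximab (4.73, SE 0.68, adjusted p = 0.00044), and CNN1, calponin, at 0.203 CPM or less with PBS and up to 3.15 CPM with cetuximab. ACTA2 rose with overlap (1.71) and was not called on the shared flow cell, and 1 member did not pass the test. MYL7 lies on chromosome 7 from 44178463 to 44180931 (GRCh37).

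The promoters of MYL7 and ACTG2 are shown because both genes were near 0 with PBS and higher in every cetuximab library, and because both windows hold a CArG box, in capitals. They come from RefSeq on GRCh38.p14. That of MYL7 is chr7:44141283-44141582 on the minus strand, with the box 61 bases before the gene start, and that of ACTG2 is chr2:73892758-73893057 on the plus strand, with boxes at 110 and 73.
MYL7: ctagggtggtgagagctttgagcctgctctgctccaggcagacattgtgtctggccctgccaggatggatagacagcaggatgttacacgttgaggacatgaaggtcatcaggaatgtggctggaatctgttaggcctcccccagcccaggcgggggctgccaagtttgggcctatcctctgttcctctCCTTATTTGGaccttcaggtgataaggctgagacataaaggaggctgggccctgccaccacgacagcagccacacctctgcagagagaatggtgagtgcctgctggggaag
ACTG2: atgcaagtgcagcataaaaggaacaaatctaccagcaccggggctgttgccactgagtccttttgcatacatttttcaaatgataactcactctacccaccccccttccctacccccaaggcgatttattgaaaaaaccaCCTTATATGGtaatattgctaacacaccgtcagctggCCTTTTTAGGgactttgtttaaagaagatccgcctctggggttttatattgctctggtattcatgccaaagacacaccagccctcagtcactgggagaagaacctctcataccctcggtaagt
Of 8 contractile genes with a promoter in the table, 3 (ACTG2, MYL7 and MYLK) held a CArG box. The same box is in the promoter of EGR1, which fell. Of genes with a promoter, 1.75% of the 1831 that were higher, 0.876% of the 1826 that were lower and 0.832% of the 7333 that were not called held a CArG box. The AP-1 heptamer was in 3.06%, 4.22% and 3.22% of these sets, and the core CCGGAAGT of ETS factors, also searched on both strands, in 3.66%, 10.7% and 8.95%. These shares are descriptions with no test, and the genes of a set differ in level and in base composition.

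Integrins and laminins moved in both directions. Of 21 integrin and laminin genes, 8 were higher and 6 lower, and 3 were lower without PBS day 2. ITGB6, which pairs with ITGAV to bind fibronectin and latent TGF-beta, was at 81.2, 95.7, 68.6, 60.8 and 64.9 CPM with PBS and 246, 256, 260.5, 226 and 256 CPM with cetuximab (1.75, SE 0.12, adjusted p = 6.6e-06), and ITGAV was at 149, 203, 168, 162 and 156 CPM with PBS and 407, 399, 395, 306 and 344 CPM with cetuximab (1.14, SE 0.11, adjusted p = 3.9e-05). Both were as high in 2a as later. ITGB3, at 1.29 CPM or less with PBS, rose to 11.8 CPM (2.99, SE 0.34, adjusted p = 9.8e-05). LAMB3, a chain of laminin 332, the anchor of basal keratinocytes, was at 3178, 2219, 2159, 1696 and 1234 CPM with PBS and 735, 868, 951, 1036 and 926 CPM with cetuximab (-1.22, SE 0.21, adjusted p = 0.0014). LAMA3, another of its chains, had a log2 fold change of -1.47 with overlap and was not called on the shared flow cell. The collagen receptors ITGA1 and ITGA2 fell (-2.001 and -1.29), while LAMB1, LAMC1, LAMA5 and LAMB2 rose.

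In the TGF-beta pathway, 8 of 14 genes were higher and 2 lower, with a median of 0.578. TGFB2 was at 1.74, 2.94, 3.7, 6.27 and 9.99 CPM with PBS and 47.2, 91.7, 146, 116 and 152 CPM with cetuximab (4.49, SE 0.47, adjusted p = 5.8e-05). PBS itself climbed over the days, and the lowest cetuximab library was above the highest PBS library. The other ligands TGFB1 and TGFB3 did not pass the test (0.12 and 0.24). LTBP2 and LTBP1, which hold latent TGF-beta in the matrix, rose (1.39 and 0.92), as did the pathway's targets SMAD7 (0.86) and SKIL (0.81). TGFBR3, the co-receptor betaglycan, fell from 9.18 ± 0.945 to 4.39 ± 1.75 CPM (SD, n = 5 each, -1.07). FST, follistatin, which binds activins, fell with overlap (-1.92) and was not called on the shared flow cell. Without cetuximab days 4 and 5, 5 members were higher.

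Of 13 BMP and ID genes, 7 were higher and none lower. ID3, a target of BMP signalling, was at 16.6, 12.6, 12.4, 14.3 and 14.8 CPM with PBS and 34, 46.8, 49.5, 74.4 and 68.4 CPM with cetuximab (1.95, SE 0.20, adjusted p = 4.4e-05). ID4, BAMBI and SMAD6 rose at lower levels (2.72, 2.28 and 2.65), BMPR2, a receptor, rose by 1.48, and 6 members did not pass the test.

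Growth factor receptors other than the ERBB family were examined because they can carry signals when EGFR is blocked. Of 23 tested, 8 were higher and 2 lower. FGFR2 was at 4.44, 4.43, 3.99, 5.06 and 4.66 CPM with PBS and 17.6, 15.9, 19.5, 23.8 and 25.5 CPM with cetuximab (2.18, SE 0.15, adjusted p = 6.1e-06), without overlap and already high in 2a. AXL was at 241, 188, 193, 184 and 192 CPM with PBS and 220.1, 271, 314, 356 and 336 CPM with cetuximab (0.59, SE 0.13, adjusted p = 0.0066), with 2a below PBS day 1. Without cetuximab days 4 and 5, AXL was not called (adjusted p = 0.053). PDGFRB, a receptor of the PDGF ligands that rose, went from at most 0.123 CPM to 0.524, 1.39, 2.03, 6.46 and 7.67 CPM (5.60, SE 0.83, adjusted p = 0.00052). MET rose by 0.32, EPHB2 and EPHB4 by 1.10 and 0.82, and MST1R, the RON receptor, fell by 1.41.

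In the IGF axis, 6 of 12 genes were higher and 1 lower, with a median of 0.547. IGFBP5, a binding protein, was at 2.03, 2.33, 2.16, 3.42 and 3.78 CPM with PBS and 4.95, 26.9, 97.8, 174 and 371 CPM with cetuximab (5.62, SE 0.94, adjusted p = 0.0012). Library 2a was close to the PBS values and day 5 was far above them. IGFBP7 went from 11.9, 9.51, 7.62, 10.1 and 11.1 CPM with PBS to 24.4, 51.9, 88.4, 117 and 116 CPM with cetuximab (2.98, SE 0.37, adjusted p = 0.00017). IGF1R, the receptor, was at 139.9, 130, 115, 109 and 116 CPM with PBS and 246, 251, 238, 217 and 208 CPM with cetuximab (0.93, SE 0.09, adjusted p = 4.9e-05) and was as high in 2a as later, while IGF2, its ligand, fell with overlap (-0.83) and was not called on the shared flow cell. TFAP2A and TFAP2C, the tested members of the TFAP2 family, did not pass the test. TFAP2A was at 47.8, 53.4, 47.6, 44.9 and 41.7 CPM with PBS and 58.3, 54.8, 49.5, 43.1 and 34.5 CPM with cetuximab, overlapping (0.03, SE 0.14, adjusted p = 0.9).

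WNT pathway genes were more often higher (8 of 20) than lower (1). WNT5A and WNT5B, ligands of the pathway that does not use beta-catenin, were at 3.54, 2.78, 4.71, 6.14 and 10.5 CPM with PBS and 17.3, 17.2, 25.4, 28.5 and 30.9 CPM with cetuximab (2.11, SE 0.33, adjusted p = 0.00073) and at 12.8, 9.02, 6.4, 6.19 and 4.76 CPM with PBS and 15.9, 20.8, 26, 41.1 and 38.5 CPM with cetuximab (1.86, SE 0.31, adjusted p = 0.0012). DKK3, a secreted protein of the Dickkopf family, rose from 3.12 ± 0.935 to 36.4 ± 19.5 CPM (SD, n = 5 each, 3.55), while DKK1 did not pass the test (-0.41). AXIN2, a beta-catenin target, rose at a level of 1.56 CPM or less (1.86), but it passed the filter only through the cetuximab libraries. NKD2 fell (-2.20). TCF7L1, a repressor of WNT targets that is in no list, was at 3.92, 2.59, 2.19, 2.56 and 2.87 CPM with PBS and 13.7, 22.4, 35.2, 47.4 and 53.2 CPM with cetuximab (3.60, SE 0.35, adjusted p = 3.9e-05).

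Of 13 Notch genes, 3 were higher and 3 lower. The ligand DLL1 rose from 3.05, 2.1, 1.73, 2.29 and 1.65 CPM with PBS to 9.29, 9.73, 10.1, 16.2 and 13.9 CPM with cetuximab (2.45, SE 0.22, adjusted p = 2.3e-05) and the ligand DLL4 fell (-1.77). The Notch targets HES1 and NRARP fell without overlap (-0.74 and -1.44). Of 13 YAP and TEAD targets, 7 were higher and 2 lower, with a median of 0.586. ANKRD1 was at 24.1, 58.7, 73.6, 55.1 and 48.4 CPM with PBS and 75.2, 194, 297, 167 and 175 CPM with cetuximab (1.81, SE 0.34, adjusted p = 0.0023), highest on day 3. CYR61, CTGF and CRIM1 rose (0.70, 1.08 and 1.10), CTGF with overlap. NT5E, the ectoenzyme CD73, fell from 273, 316, 296, 216 and 182 CPM with PBS to 79.5, 81.5, 74, 37.8 and 32.8 CPM with cetuximab (-2.07, SE 0.27, adjusted p = 0.00024).

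Interferon-stimulated genes were higher in part. Of 30 tested, 11 were higher and 1 lower, with a median of 0.585. That count was 5 without cetuximab days 4 and 5, 4 without PBS day 2 or PBS day 3, and 5 to 7 on leaving out any 1 of cetuximab 2b, 3, 4 and 5. IFIT2 was at 7.72, 11.5, 14.8, 23.1 and 19.6 CPM with PBS and 29.2, 37.8, 36.1, 26.7 and 20.6 CPM with cetuximab (0.97, SE 0.27, adjusted p = 0.018). PBS itself rose from day 1 to day 4, and the groups overlapped. IRF9, a part of the ISGF3 complex, was at 10.2, 8.54, 7.3, 13.6 and 9.41 CPM with PBS and 8.42, 14.1, 20.7, 36.3 and 38.6 CPM with cetuximab (1.27, SE 0.36, adjusted p = 0.021), with 2a inside the PBS range, and was not called on the shared flow cell. STAT2 rose by 0.53, and ISG15 and MX1 did not pass the test (0.56 and 1.04). Of 15 genes of MHC class I and antigen processing, 5 were higher and 2 lower. TAP1, a peptide transporter subunit, and TAPBP rose (1.05 and 0.86), TAP2 fell (-0.73), B2M did not pass the test (-0.37), and HLA-B rose with overlap (0.83), where reads may be shared between HLA genes. CD274, which encodes PD-L1, was at 23.5, 35.2, 36.8, 28.2 and 25.4 CPM with PBS and 9.35, 13.2, 12.7, 7 and 8.4 CPM with cetuximab (-1.56, SE 0.20, adjusted p = 0.0002), without overlap. CD276, B7-H3, rose (1.31).

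Lipid synthesis genes were more often higher than lower. Of 27 genes of cholesterol and fatty acid synthesis, 13 were higher and 2 lower, with a median of 0.334, and 9 were higher without cetuximab days 4 and 5. SQLE, squalene epoxidase, was at 378, 433, 423, 464 and 473 CPM with PBS and 709, 681, 733, 625 and 614 CPM with cetuximab (0.63, SE 0.09, adjusted p = 0.00045), and HMGCS1 at 204, 308, 344, 389.5 and 399.7 CPM with PBS and 554, 541, 580, 477 and 466 CPM with cetuximab (0.67, SE 0.16, adjusted p = 0.0088). Both were as high in 2a as later. ELOVL6, a fatty acid elongase, fell by 1.19 on the log2 scale. FASN did not pass the test (0.28). Glycolytic genes were split, with 7 of 25 lower and 4 higher, and 2 were higher on leaving out any 1 of cetuximab days 3, 4 and 5. HK2, hexokinase 2, was at 175, 194, 211, 180.4 and 171 CPM with PBS and 86.9, 110.3, 138, 95.7 and 94 CPM with cetuximab (-0.83, SE 0.13, adjusted p = 0.00062), and GPI, ENO1, PGK1 and LDHA fell by 0.45 to 0.52. SLC2A3, the glucose transporter GLUT3, went the other way, from 1.77, 2.65, 5.46, 6.71 and 8.98 CPM with PBS to 13.1, 25.5, 59.7, 79 and 113 CPM with cetuximab (3.51, SE 0.60, adjusted p = 0.0013), while SLC2A1 did not pass the test (-0.28).

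Of 35 respiratory chain subunits, 12 were lower and none higher, with a median of -0.254. The count was 3 without cetuximab days 4 and 5 and 5 without PBS day 4 or cetuximab day 5. It was 7 without PBS day 3, 19 without PBS day 1 and 21 with the replicate block by labelled day. SDHB was at 60.4, 66.7, 66.1, 74.4 and 72.2 CPM with PBS and 54.6, 50.5, 51.4, 46.1 and 42 CPM with cetuximab (-0.48, SE 0.10, adjusted p = 0.0036). Of 32 cytosolic ribosomal proteins, 22 (68.8%) were lower and none higher, with a median of -0.376. The count was 12 without days 4 and 5 and 25 on the shared flow cell. RPS18 was at 809.6, 939.5, 1029, 1136 and 1040 CPM with PBS and 710.3, 734, 741, 672 and 608 CPM with cetuximab (-0.52, SE 0.10, adjusted p = 0.0034). No cetuximab library reached the lowest PBS library, PBS day 1. Ribosomal protein genes have many pseudogenes, and reads may be shared with them. Among long noncoding RNAs, 5 of 15 were lower and 2 higher, and the hosts of small nucleolar RNAs SNHG1, SNHG5, SNHG7 and GAS5 were 4 of those lower (-0.57, -0.70, -0.41 and -0.57). Only 1 of the 15 was lower without days 4 and 5, and 3 were without PBS day 4, cetuximab day 4 or cetuximab day 5. MIR205HG rose (0.75), and MALAT1 and NEAT1 did not pass the test (0.21 and -0.38).

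Of 28 genes of lysosome and autophagy, 14 were higher and 2 lower, with a median of 0.254. The count of those higher was 6 without cetuximab days 4 and 5 and 8 or 9 on leaving out any 1 of PBS days 2, 3 and 4 and cetuximab days 3, 4 and 5. GABARAPL1, which takes part in autophagosome formation, was at 43.4, 52.3, 63.3, 74.1 and 89.8 CPM with PBS and 106, 164, 226, 277 and 318 CPM with cetuximab (1.75, SE 0.28, adjusted p = 0.00094), and TP53INP1 at 8.13, 7.05, 8.84, 7.72 and 8.88 CPM with PBS and 20.1, 19.4, 24, 24.1 and 28.8 CPM with cetuximab (1.52, SE 0.13, adjusted p = 1.9e-05). Both were above PBS in every cetuximab library. CTSL, a cathepsin, fell by 0.48. Of 24 genes of amino acid and ER stress only SLC7A5 and SLC3A2, the 2 chains of an amino acid transporter, were called, both higher (0.87 and 0.61), and 12 were called higher without 2a and 2b. Of 20 NRF2 targets, 5 were higher and 2 lower, with HMOX1 at 0.998 and AKR1C1 at -0.71, whose reads may be shared with other AKR1C genes. Of 17 p53 targets, 5 were higher and 2 lower, with TP53I3 at 1.54 and PLK3 at -1.49, and 3 were higher without PBS day 2 or PBS day 3. Of 18 genes of the aryl hydrocarbon receptor and retinoids, 5 were higher and 2 lower, and 3 were higher without PBS day 2, PBS day 4 or cetuximab day 4. DHRS9, an enzyme of retinoid metabolism, was at 1.42, 1.16, 2.3, 1.33 and 1.49 CPM with PBS and 0.175, 0.0682, 0.0945, 0.098 and 0.0394 CPM with cetuximab (-4.07, SE 0.34, adjusted p = 1.4e-05). Of 15 HOX genes tested, 4 were higher and 2 lower, each by less than 1 on the log2 scale.

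**Figure D3:**
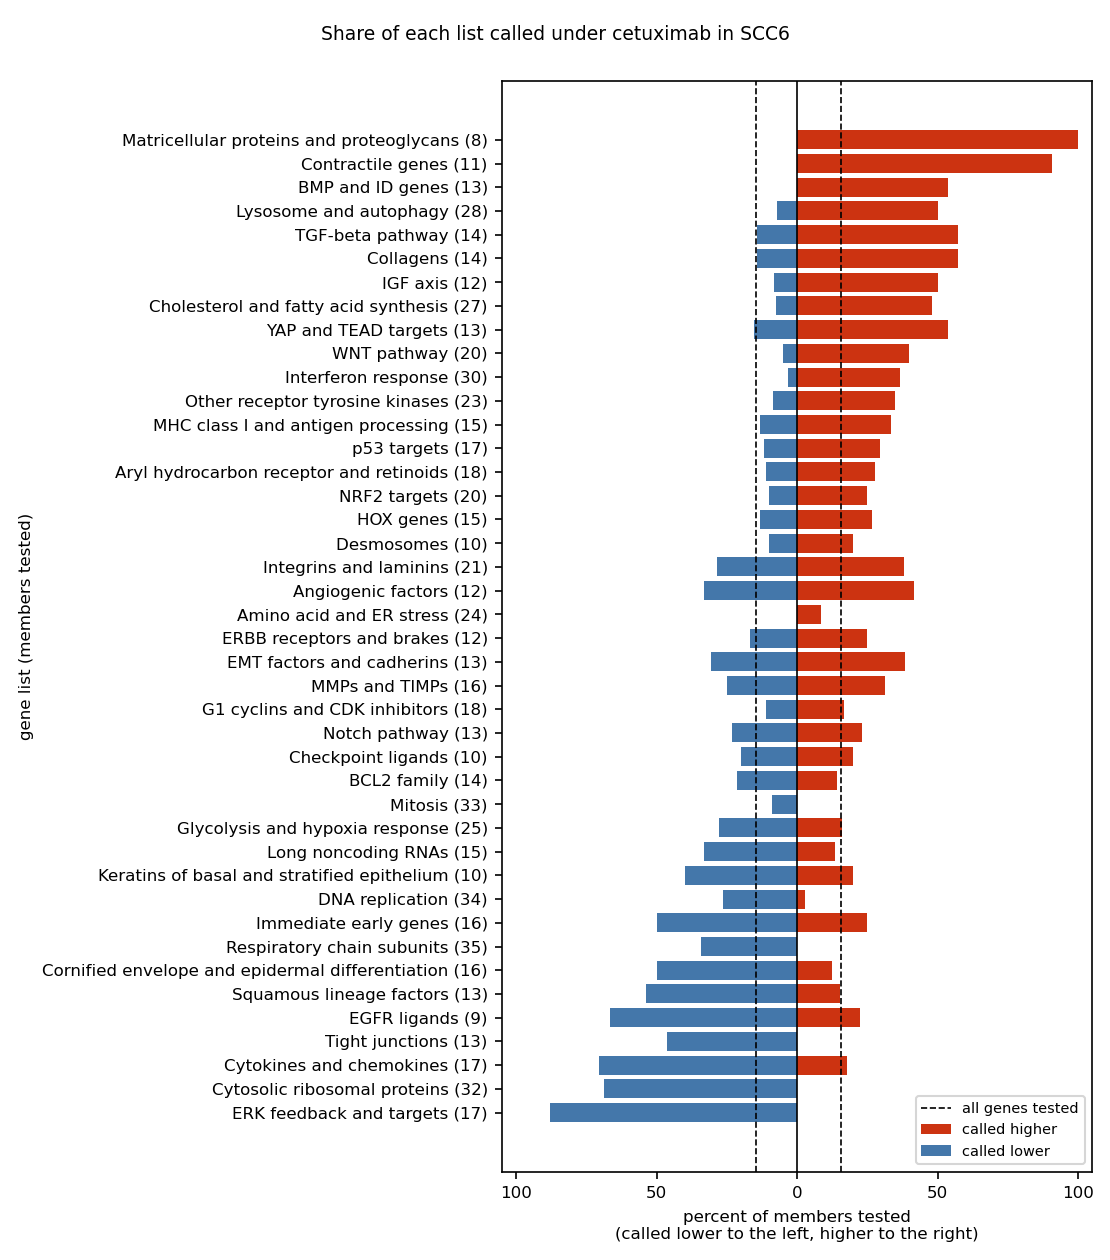
Bars give the percent of each list's tested members called higher (red, to the right) or lower (blue, to the left) with cetuximab, for lists with 8 or more tested members, and dashed lines give 15.5% higher and 14.5% lower over all genes tested. Contractile genes, among them MYL7, CNN1 and ACTG2 that passed the filter only through cetuximab, reached 90.9% higher. ERK feedback and target genes reached 88.2% lower, while mitosis, at 9.09% lower, stayed inside both lines.

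Further genes entered by size alone, as the 12 largest rises and 12 largest falls among called genes that did not overlap and whose average log2 CPM reached 3. HAS2, hyaluronan synthase 2, was at 65.4, 70.04, 75.4, 38.5 and 29.1 CPM with PBS and 3.64, 2.25, 1.84, 0.821 and 0.853 CPM with cetuximab (-4.94, SE 0.45, adjusted p = 2.4e-05). CEACAM6, a surface glycoprotein of epithelial tumours, was at 14.1, 20.9, 19.1, 15.2 and 12.9 CPM with PBS and 1.86, 1.21, 0.378, 0.392 and 0.236 CPM with cetuximab (-4.42, SE 0.49, adjusted p = 9.2e-05). FAM83A-AS1, an RNA antisense to FAM83A, fell by 3.32. It was not stated whether the counting used strand, so its reads and those of FAM83A may be mixed. The uncharacterised RP1-140K8.5 rose from 1.59 ± 0.252 to 21.8 ± 6.74 CPM (SD, n = 5 each, 3.78), and LA16c-60D12.2, named on the shared flow cell, fell (-3.53).

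On the shared flow cell, with 3 cetuximab and 4 PBS libraries, the test called 4953 of 17368 genes (28.5%), with 2606 (15%) higher and 2347 (13.5%) lower. Without library 2b the count was 3051. This comparison is part of the former one and shares its libraries, so it is not a repeat of it. Both called 4043 genes, 77.4% of the 5226 and 81.6% of the 4953, and all 4043 had the same direction. Several large rises were smaller here. MYL7 had a log2 fold change of 6.44 (SE 1.05) against 8.02 over all libraries, IGFBP5 3.90 (SE 1.01) against 5.62, and HMCN1 2.77 (SE 0.40) against 4.09. MMP1 was at -6.09 (SE 1.30), ESM1 at -7.25 and EGR1 at -4.01. IL1RL1 was at -8.55, slightly below its -8.30 over all libraries. By list, the ERK feedback and target genes had 15 of 17 lower (median -1.13), matricellular genes 7 of 7 higher (median 1.31), and interferon genes 6 of 30 higher (median 0.325).

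**Figure D4:**
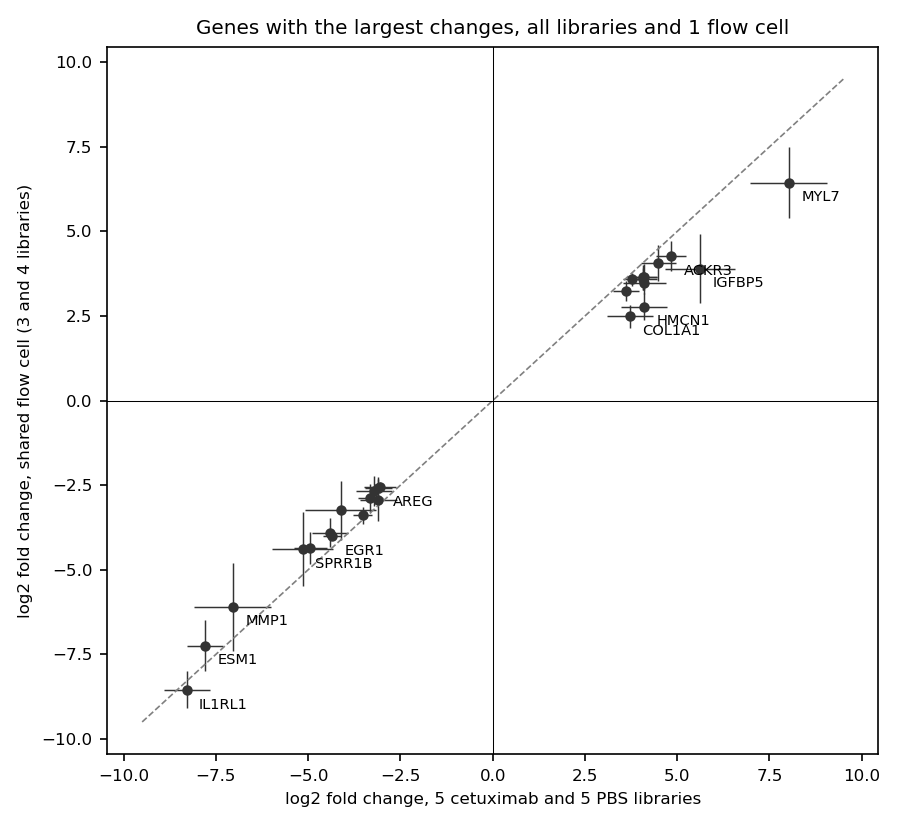
Points are the genes with the largest changes, with the log2 fold change and its SE over 5 cetuximab and 5 PBS libraries on the x axis and over the 3 and 4 libraries of the shared flow cell on the y axis, and the dashed line marks equal values. Rises lie below the line (MYL7 at 8.02 and 6.44) and falls near it (IL1RL1 at -8.30 and -8.55, MMP1 at -7.04 and -6.09).

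Whether the SCC6 change differed from that of SCC1 and SCC25, which were treated alike, was tested in a fit of all 30 libraries of days 1 to 5. The SCC6 change differed from the mean change of the other lines for 4691 of 21414 genes (21.9%), above it for 2639 (12.3%) and below it for 2052 (9.58%). With library totals in place of TMM 44.8% of these genes were above, and with the GC trend removed 46.2%, against 56.3%, so the balance of directions depended on the scaling. A flow cell term lowered the count to 2442. In SCC1 all cetuximab libraries shared a flow cell with PBS day 5, apart from PBS days 1 to 4, and in SCC25 cetuximab days 3 to 5 were apart from all PBS libraries, so that in these lines the change and the flow cell are largely confounded and cannot be told apart. VIM had the largest positive difference among genes chosen by rule, 4.20 (SE 0.45, adjusted p = 1.1e-07), with log2 fold changes of 2.02 in SCC6, -3.89 in SCC1 and -0.47 in SCC25. The sign of the estimate in SCC6 was opposite to that in both other lines, whose own VIM levels and tests are not reported here. In single cells the paper reports VIM in treated but not in untreated SCC6 cells, and no VIM expression in SCC1. For SCC25 the paper reports an increase of VIM in most cells with cetuximab, and VIM-negative cells only in the untreated group. The bulk estimate was positive in SCC6 (2.02) and negative in SCC25 (-0.47). For SCC25, single cells and bulk thus differed in direction, and the reason was not tested. SLC2A3 had 3.53, 0.21 and -1.45 in SCC6, SCC1 and SCC25 (4.15, SE 0.60). For COL4A1 these were 3.28, -0.07 and -0.23, and for DKK3 3.57, -0.10 and 0.35. SPARC rose in SCC6 to 3.5 CPM at most and had changes of 4.82, 1.94 and 0.54. DYSF, which encodes a protein of membrane repair, ARHGAP31, a GTPase-activating protein, and DPYSL3, a cytoskeletal regulator, had values of -2.24, -1.88 and -1.90 in SCC1 and of 2.62, 2.60 and 2.45 in SCC6. In SCC6, DYSF was at 8.83, 5.92, 5.64, 4.87 and 5.67 CPM with PBS and 10.7, 21, 40.03, 53.1 and 62 CPM with cetuximab.

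Among negative differences, KRT6A had -4.93 (SE 0.68, adjusted p = 5.7e-06) and KRT6B -4.10 (SE 0.76). KRT6A had log2 fold changes of -3.53 in SCC6, 2.74 in SCC1 and 0.06 in SCC25. MMP1 had -7.05, -5.74 and 0.69, with a positive value in SCC25 alone. IL1RN, at -3.24, 1.93 and -0.82, and SLPI, a protease inhibitor of mucosa, at -2.46, 1.38 and 0.59, fell in SCC6 and had positive values in SCC1. SLPI was at 220.2, 234, 223, 188 and 122 CPM with PBS and 81.6, 42.8, 27.1, 16.8 and 10.7 CPM with cetuximab in SCC6 (-2.47, SE 0.46, adjusted p = 0.0022). KRT15 had -1.19, 2.47 and 0.59. RAB27B, a GTPase of exosome release, had -2.11, 1.03 and 0.04, and MUC16, a membrane mucin, -1.02, 1.74 and 1.74. The MUC16 change within SCC6 (-1.03, adjusted p = 0.041) was not called under 11 of the alternative settings. For the ERK feedback gene DUSP6 the difference did not pass the test (0.23, SE 0.19, adjusted p = 0.43), nor did it for the ligand HBEGF (0.03, SE 0.26, adjusted p = 0.96).

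**Figure D5:**
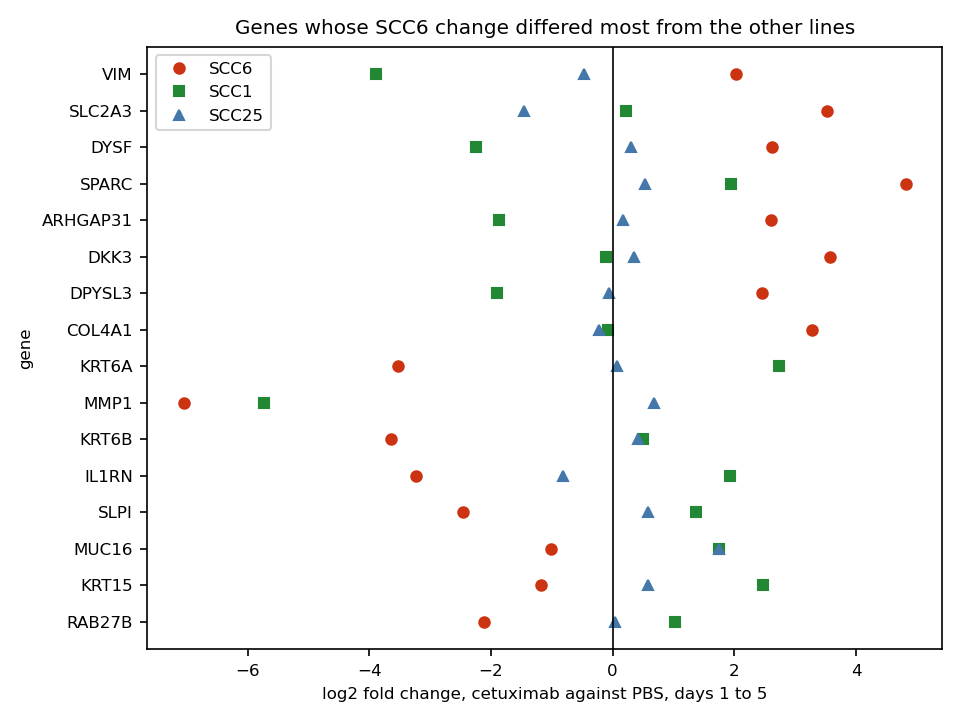
Points give the log2 fold change of cetuximab against PBS in SCC6 (red circles), SCC1 (green squares) and SCC25 (blue triangles) for the 16 genes chosen by the size of the difference, from 1 fit of 30 libraries. VIM stood at 2.02, -3.89 and -0.47, and KRT6A at -3.53, 2.74 and 0.06.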

How the data were processed

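RNA was sequenced from poly(A)-selected libraries of SCC6, SCC1 and SCC25. The authors quantified reads per transcript with Salmon 0.8.2 (submitters' processing notes, builds hg19 and GRCh37) and deposited estimated counts summed per gene symbol, with no normalization. The annotation is not given in the sources used here. Estimated counts were rounded to whole numbers, filtered with filterByExpr, scaled by TMM and tested with edgeR 4.0.16 (R 4.3.3, limma 3.58.1), two-sided, at an adjusted p under 0.05. DESeq2 1.42.0 was an alternative. The fits were tested on simulated data. Log2 ratios used CPM + 0.1. Depth ranged from 28508758 to 80727478 counts, which bounds the precision of low genes, and intervals between libraries cover the spread of these libraries only.

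Genes were named as members of 46 pathway lists, as the 12 largest rises and falls without overlap, the 8 largest on the shared flow cell, and the 8 largest differences from the other lines in each direction, these sets needing an average log2 CPM of 3. The members and lists were chosen with earlier results of these data known. Promoters came from the RefSeq table on GRCh38.p14, matched by symbol. Gene coordinates are those of GENCODE on GRCh37, matched by symbol. Alternatives changed the scaling, filter, libraries, block, flow cell term and GC correction (85.5% of tested genes had a GC value), and those that leave out days 2, or 4 and 5, or correct for GC were chosen after seeing the data. Some list members are counted in their lists but not reported here by name. Figures were drawn with matplotlib 3.10.9.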

Additional observations from a re-analysis of the deposited data

Results flagged for a closer look

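Within the groups of 5, 1 library lay far from the others, by the gap to its neighbour over the range of log2 values (Dixon's ratio above 0.71), in 32 of 566 groups tested, and chance gives about 1 in 20. PBS day 1, which was on a flow cell with SCC1 libraries, was the library in question for most of them. It was the highest PBS library, in CPM, for AXL (240.7), COL4A2 (143.3), COL5A1 (49.75), EPHB4 (44.52), ERBB2 (77.39), FASN (478.1), IER2 (313.3), LAMA5 (411.1), LIF (421.6), PDGFA (23.67), SLC7A5 (2263), SRF (59.39) and TGFB1 (65.37). It was the lowest for ATF3 (71.5), BTC (2.672), CDK1 (156.8), EHF (169.5), ELOVL6 (26.25), TPM1 (87.94) and ZEB2 (1.104). The other PBS values were HBEGF at 308.4 (lowest, day 5), IVL at 6.513 (lowest, day 5), MUC16 at 11.06 (lowest, day 4), SNAI1 at 4.385 (highest, day 3) and TNC at 23.49 (highest, day 5). Among cetuximab libraries they were ATF3 at 121.6 (lowest, 2a), CCL5 at 0.5536 (lowest, 2a), COL13A1 at 0.3496 (lowest, 2a), DSG3 at 0.9321 (lowest, 2b), IER2 at 91.49 (highest, day 4), MCL1 at 323.1 (lowest, day 4) and TNF at 2.01 (lowest, 2a).

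The change in SCC6 differed from the mean change of SCC1 and SCC25 for 4691 genes, by the test of the difference itself in edgeR. Among the genes chosen by size, the log2 difference was positive for VIM (4.2), SLC2A3 (4.146), DYSF (3.589), SPARC (3.581), ARHGAP31 (3.451), DKK3 (3.447), DPYSL3 (3.436) and COL4A1 (3.433). It was negative for KRT6A (-4.928), MMP1 (-4.528), KRT6B (-4.102), IL1RN (-3.789), SLPI (-3.441), MUC16 (-2.763), KRT15 (-2.714) and RAB27B (-2.646).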

How the results depend on the processing

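Over days 1 to 5, leaving out 1 library gave 3764 (without cetuximab day 5) to 6602 called genes (without PBS day 1). On the shared flow cell the range was 3051 (without 2b) to 5370 (without 2a), and for the difference from the other lines it was 3618 to 6224. With a log2 fold change of at least 1 required, the counts were 1685, 1250 and 1526. A flow cell term left 2442 genes for the difference from the other lines. Without cetuximab days 4 and 5, 2864 genes were called. The replicate block by labelled day gave 7967 called genes over days 1 to 5 and 7665 for the difference from the other lines, and with GC correction and the block 7997, while the block with 2a taken as day 1 gave 4339 and with 2b as day 1 4710. The day numbers did not pair the libraries. The correlation of deviations from the group means was 0.574 for PBS day 2 and 2a and 0.593 for day 3, but -0.194 for day 4 and 4e-05 for day 5. The causes were not tested.

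Of 249 named genes that were called, 248 kept their direction under every alternative run and 191 stayed called, the exception in direction being TK1 (-0.0145 with GC correction and the block). Named genes that were not called changed sign as follows. TOP2A had 0.00299 without the filter on low counts, -0.116 to 0.0797 on leaving out 1 library, 0.0744 with PBS day 0, 0.107 with a flow cell term, 0.0993 with GC correction, 0.0486 with GC correction and the block and 0.185 without days 4 and 5. TFAP2A had -0.0516 to 0.137 on leaving out 1 library, -0.0389 with 2a and 2b summed, -0.0378 with the block, -0.0132 with GC correction, -0.0759 with both and -0.154 without day 2. TGFB1 had -0.00303 to 0.376 on leaving out 1 library, -0.101 with PBS day 0, -0.113 with GC correction, -0.114 with GC correction and the block and -0.0834 without days 4 and 5. FASN had -0.0795 with GC correction, -0.118 with the block as well and -0.141 without days 4 and 5. CDKN1A had -0.401 to 0.119 on leaving out 1 library, the highest without PBS day 1, 0.118 with the block and 0.00508 without day 2. IVL had 0.167 without day 2, and KRT14 -0.0777 with PBS day 0.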
